A study of Mus musculus with 8 samples.

Results

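The epithelial sodium channel (ENaC) and the genes that carry the mineralocorticoid response were read in the kidneys of NEKO mice as a set of 8 genes out of the 13570 named genes tested. The set was chosen by gene symbol, from what each gene does, with earlier results of these data known. It holds the ENaC subunits Scnn1a, Scnn1b and Scnn1g, the mineralocorticoid receptor Nr3c2, the steroid-inactivating enzyme Hsd11b2, the kinase Sgk1, the ubiquitin ligase Nedd4l and the steroid-induced regulator Tsc22d3. All 8 genes passed the filter on dim probes, which asked that 4 or more arrays, of any group, show the probe well above background. For 7 of them this held on all 8 arrays, and for Nr3c2 on 7.

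Total kidney RNA of 8 mice aged 8 weeks was hybridised to Agilent 1-colour (Cy3) mouse oligonucleotide arrays, with 1 array per mouse. The 4 NEKO mice carried Keap1-/-::Nrf2Flox/Flox::K5-Cre. They lack KEAP1, the protein that keeps the transcription factor NRF2 low, in the whole body. The keratin 5 promoter drives Cre in squamous epithelium and removes Nrf2 there, so that tissues without K5-Cre keep it. The 4 control mice were all Keap1+/-::Nrf2Flox/Flox, 3 with K5-Cre (labelled K1Cre) and 1 without (labelled K1). Controls were littermates, per the methods. The floxed Nrf2 alleles were thus shared by all 8 mice, and the controls had lost 1 Keap1 allele. The strain background was mixed, from 129Sv/J and C57BL/6J. Each group had 2 females and 2 males. The label numbers run over both groups: control replicates 1 (the K1 mouse) and 8 were female and 4 and 7 male, and NEKO replicates 2 and 3 were female and 5 and 6 male.

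In the aldosterone-sensitive distal nephron, which ends in the collecting duct, sodium enters the principal cell through ENaC, a channel built from alpha, beta and gamma subunits, and water follows through aquaporins. Aldosterone binds the mineralocorticoid receptor, and 11-beta-hydroxysteroid dehydrogenase type 2, the product of Hsd11b2, inactivates glucocorticoids that would otherwise fill the same receptor. The receptor induces SGK1, which phosphorylates NEDD4-2, the product of Nedd4l, and so slows the removal of ENaC from the cell surface. Tsc22d3 encodes GILZ, a regulator induced by both mineralocorticoids and glucocorticoids that keeps ENaC at the membrane.

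Levels are log2 processed signals relative to the 75th percentile of the same array, and differences are NEKO minus control on that scale. Genotypes were compared with limma in a model that also holds sex, p-values were adjusted by Benjamini-Hochberg over everything tested, and genes with an adjusted p under 0.05 were called. The share of probes well above background was 61.8% to 65.7% on control arrays and 61.9% to 64.7% on NEKO arrays. Each slide held 1 sex, so that sex and slide cannot be told apart. On both slides the controls lay at array positions 1 and 2 and the NEKO mice at positions 3 and 4, so position and genotype cannot be told apart either. Keap1 transcript was at 1.77 to 1.92 in the controls and at 0.06 to 0.45 in NEKO mice, a difference of -1.63 (SE 0.10, adjusted p = 0.0046 from limma). Nqo1, a target of NRF2, was at 1.24 to 2.46 in the controls and at 3.89 to 5.45 in NEKO mice, without overlap (difference 2.62, SE 0.43, adjusted p = 0.065 from limma).

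Of the 8 genes, 0 were called, against 0.280% of all named genes tested (0.111% higher and 0.169% lower). By sign, 6 were lower in NEKO kidneys and 2 higher. At an unadjusted p under 0.05 from limma, 3 were lower and 0 higher, where 10.1% of all named genes tested were lower and 8.16% higher. The 3 were Scnn1b, Hsd11b2 and Scnn1a. In 0 of the 8 did all NEKO mice lie on one side of all control mice, which 9.58% of named genes did (4.50% higher and 5.07% lower). The median difference over the 8 was -0.24, and that over all named genes was -0.019. In whole kidney, fewer cells of a type and less RNA per cell cannot be told apart.

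**Figure D1:**
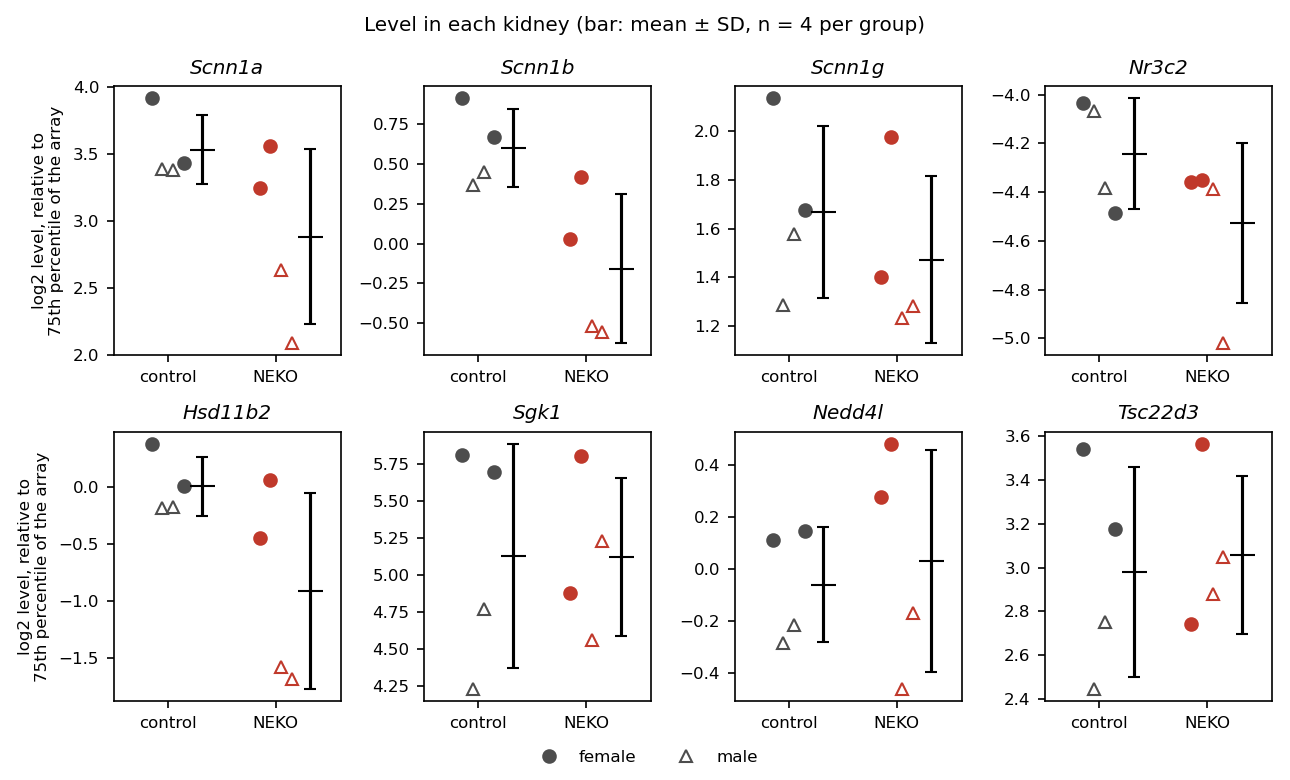
Level of each of the 8 genes in each kidney, as log2 signal over the array's 75th percentile, with 1 point per mouse (filled circles females, open triangles males) and the mean ± SD of each group (n = 4) beside the points. The NEKO males are lowest for Scnn1a, Scnn1b and Hsd11b2, whereas the groups lie across each other for Sgk1, Nedd4l and Tsc22d3; the vertical scale differs between panels.

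Among the ENaC subunits, the beta subunit Scnn1b had the smallest adjusted p of the 8 genes. Its level was 0.91 and 0.67 in the control females (replicates 1 and 8), 0.37 and 0.45 in the control males (4 and 7), 0.03 and 0.42 in the NEKO females (2 and 3) and -0.52 and -0.56 in the NEKO males (5 and 6). The only overlap between the groups was NEKO female 3, at 0.42, above control male 4. Within each sex both NEKO mice lay below both control mice, a pattern that 10.4% of named genes showed and that none of the other 7 genes in the set did. The opposite pattern was seen in 7.89% of named genes and in 0 of the 8. The group means were 0.60 ± 0.24 (SD, n = 4) in controls and -0.16 ± 0.47 (SD, n = 4) in NEKO mice. The difference was -0.76 (SE 0.13, 95% interval -1.06 to -0.46), or 1.69-fold lower (1.37 to 2.09), with an adjusted p of 0.0669 from limma. The two-sided exact permutation test of 4 mice against 4 gave p = 0.0571, where the smallest value possible is 0.0286. Scnn1b was called in some other settings, with an adjusted p from limma of 0.0314 when a sex by genotype interaction was fitted and the effect averaged over both sexes, and its adjusted p reached 0.424 under the methods' comparison of unequal variances.

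The alpha subunit Scnn1a, which the channel needs for any current, was at 3.91 and 3.43 in the control females, 3.39 and 3.38 in the control males, 3.25 and 3.56 in the NEKO females and 2.63 and 2.09 in the NEKO males. Both NEKO males and NEKO female 2 lay below all controls, and NEKO female 3 lay above 3 of the 4 controls. The means were 3.53 ± 0.26 (SD, n = 4) in controls and 2.88 ± 0.65 (SD, n = 4) in NEKO mice. The difference of -0.65 (SE 0.21, 95% interval -1.15 to -0.14) had an adjusted p of 0.204 from limma. A second, dimmer Scnn1a probe gave -0.70, and its groups also overlapped (exact permutation p = 0.229).

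The gamma subunit Scnn1g was at 2.14 and 1.68 in the control females, 1.29 and 1.58 in the control males, 1.40 and 1.98 in the NEKO females and 1.23 and 1.28 in the NEKO males. The highest NEKO mouse, female 3, lay above 3 of the 4 controls. The means were 1.67 ± 0.35 (SD, n = 4) and 1.47 ± 0.34 (SD, n = 4). The difference of -0.20 (SE 0.16, 95% interval -0.58 to 0.18) had an adjusted p of 0.538 from limma. The difference was -0.08 without NEKO replicate 2, -0.10 without control replicate 1 and -0.31 without NEKO replicate 3. The intervals of Scnn1g and Scnn1b overlap, and the difference between the subunits was not tested.

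Scnn1b and Scnn1g are neighbours on chromosome 7 and are read on the same strand, with 0 protein-coding genes starting between them in the RefSeq annotation. The bases just before each start are shown because these adjacent genes had fitted differences of -0.76 and -0.20. They come from RefSeq on GRCm38.p6, plus strand, 5′ to 3′. The Scnn1b stretch is chr7:121864788-121865037, of 250 bases, and the Scnn1g stretch is chr7:121734229-121734419, of 191 bases, ending where the annotated gene begins. Capitals mark the GC box GGGCGG, searched on both strands.
Scnn1b: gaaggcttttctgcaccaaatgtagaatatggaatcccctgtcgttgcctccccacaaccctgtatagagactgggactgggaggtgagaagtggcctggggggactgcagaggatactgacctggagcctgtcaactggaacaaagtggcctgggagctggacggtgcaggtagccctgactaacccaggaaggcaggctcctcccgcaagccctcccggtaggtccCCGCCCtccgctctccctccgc
Scnn1g: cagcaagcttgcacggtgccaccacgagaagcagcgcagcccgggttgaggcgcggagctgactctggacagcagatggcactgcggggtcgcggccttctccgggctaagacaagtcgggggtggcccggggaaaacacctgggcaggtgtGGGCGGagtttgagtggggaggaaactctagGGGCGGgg
The stretch before Scnn1b holds 1 such match, on the reverse strand, and that before Scnn1g holds 2. Of all promoter windows of 250 bases before a start in the RefSeq table, 32.7% held at least 1. The letters TGACNNNGC, the core of the antioxidant response element bound by NRF2 with small MAF proteins, matched once in the Scnn1b window, 25 bases after the start, and not in that of Scnn1g. They occur in 12.4% of all windows that run from 250 bases before to 50 after a start.

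The mineralocorticoid receptor Nr3c2 had a dim probe. Its level was -4.03 and -4.49 in the control females, -4.07 and -4.38 in the control males, -4.36 and -4.35 in the NEKO females and -4.39 and -5.02 in the NEKO males. Only NEKO male 6 lay below all controls, and on its array the probe was not well above background. The means were -4.24 ± 0.23 (SD, n = 4) in controls and -4.53 ± 0.33 (SD, n = 4) in NEKO mice. The difference of -0.29 (SE 0.18, 95% interval -0.72 to 0.15) had an adjusted p of 0.438 from limma. Under normexp background correction the difference was -0.03. The other 2 probes for Nr3c2 were not well above background on any array.

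Hsd11b2, which shields the receptor from glucocorticoids, had the largest fitted difference of the 8 genes. It was at 0.38 and 0.01 in the control females, -0.18 and -0.17 in the control males, -0.44 and 0.06 in the NEKO females and -1.58 and -1.68 in the NEKO males. Both NEKO males lay far below the other 6 mice, and NEKO female 3 lay above 3 of the 4 controls. The means were 0.01 ± 0.26 (SD, n = 4) in controls and -0.91 ± 0.86 (SD, n = 4) in NEKO mice. The difference was -0.92 (SE 0.24, 95% interval -1.49 to -0.34), or 1.89-fold lower, with an adjusted p of 0.150 from limma and an exact permutation p of 0.114. In the same averaged setting the adjusted p was 0.0344. It was 0.350 from limma with no sex term and reached 0.518 under the methods' comparison. It was 0.617 with the NEKO males left out.

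Sgk1, the early target of the receptor, was at 5.81 and 5.69 in the control females, 4.23 and 4.77 in the control males, 4.88 and 5.80 in the NEKO females and 4.56 and 5.23 in the NEKO males. Its values were spread widely within both groups, and control males were 1.25 lower than control females. The means were 5.13 ± 0.75 (SD, n = 4) and 5.12 ± 0.53 (SD, n = 4). The difference of -0.01 (SE 0.29, 95% interval -0.69 to 0.68) had an adjusted p of 0.991 from limma, and an interval this wide leaves room for a decrease of the size fitted for Scnn1a. The sign was positive under quantile normalization.

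A window before 1 of the 6 Sgk1 starts in the RefSeq table holds the palindrome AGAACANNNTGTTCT, the form of element to which steroid receptors bind as dimers. It is shown because Sgk1 stands for the steroid response in this set. It lies at chr10:21993640-21993889 on GRCm38.p6, plus strand, inside the gene as annotated, and capitals mark the match, which begins 189 bases before that start.
Sgk1: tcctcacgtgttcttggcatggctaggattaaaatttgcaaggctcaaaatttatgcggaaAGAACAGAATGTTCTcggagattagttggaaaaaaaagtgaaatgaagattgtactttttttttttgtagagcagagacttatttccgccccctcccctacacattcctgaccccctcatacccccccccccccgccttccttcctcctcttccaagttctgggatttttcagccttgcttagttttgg
The palindrome, searched on both strands, matched in 3 of 32851 windows (0.00913%). It did not match in the windows of Scnn1b, Scnn1g, Nr3c2 or Tsc22d3. Windows of Scnn1a, Hsd11b2 and Nedd4l were not searched. A single arm of it, TGTTCT, matched in 19.0% of windows, and it also lies inside the palindrome.

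Tsc22d3, the GILZ gene, was at 3.54 and 3.17 in the control females, 2.45 and 2.75 in the control males, 2.74 and 3.56 in the NEKO females and 2.88 and 3.05 in the NEKO males. NEKO female 3 and control female 1 were the highest mice, and control male 4 the lowest, as for Sgk1. The means were 2.98 ± 0.48 (SD, n = 4) and 3.06 ± 0.36 (SD, n = 4). The difference of 0.08 (SE 0.22, 95% interval -0.44 to 0.60) had an adjusted p of 0.867 from limma, and its sign was negative with array weights. A second probe gave -0.03.

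Nedd4l, whose product marks ENaC for removal, was at 0.11 and 0.15 in the control females, -0.28 and -0.21 in the control males, 0.28 and 0.48 in the NEKO females and -0.46 and -0.17 in the NEKO males. The NEKO females were the highest mice and NEKO male 5 the lowest. The means were -0.06 ± 0.22 (SD, n = 4) and 0.03 ± 0.43 (SD, n = 4). The difference of 0.09 (SE 0.11, 95% interval -0.16 to 0.35) had an adjusted p of 0.668 from limma. This was the narrowest interval of the set, and it excludes a decrease of the size fitted for Scnn1b.

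**Figure D2:**
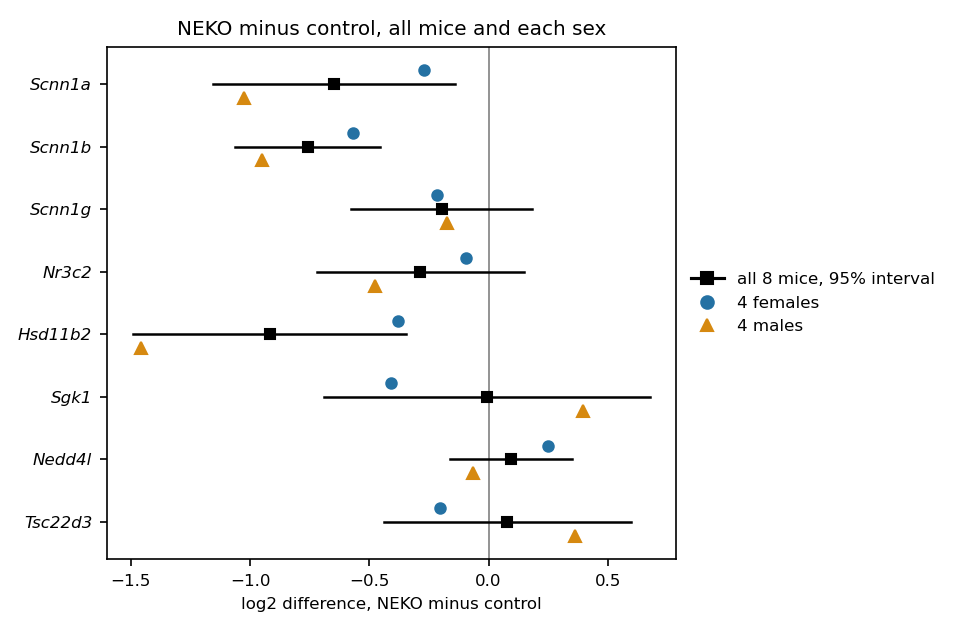
Log2 difference, NEKO minus control, for each of the 8 genes: black squares with 95% intervals from limma for all 8 mice, circles for the 4 females and triangles for the 4 males, which carry no interval. The intervals of Scnn1a, Scnn1b and Hsd11b2 lie below 0, and those of the other genes span it.

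The differences within each sex were taken from the model with an interaction of sex and genotype, a reading added after the data were seen, with 2 mice against 2 and the spread pooled over all 4 groups. In males, 2 of the 8 genes were called, both lower, where 5.04% of named genes were called in all and 1.81% called lower. Hsd11b2 fell by 1.46 on the log2 scale in NEKO males, or 2.74-fold (adjusted p = 0.0194 from limma), and Scnn1b fell by 0.95, or 1.93-fold (adjusted p = 0.0335 from limma). The difference for Scnn1a in males was -1.02 (adjusted p = 0.0798 from limma). In 5 of the 8 genes (Scnn1a, Scnn1b, Scnn1g, Nr3c2 and Hsd11b2) both NEKO males lay below both control males, as in 29.5% of all named genes. In females 0 of the 8 were called, where 0.0737% of named genes were, and the differences were -0.57 for Scnn1b, -0.38 for Hsd11b2 and -0.27 for Scnn1a. The median over the 8 genes was -0.24 in females and -0.33 in males, and over all named genes it was -0.013 and -0.030.

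The interaction itself was called for 0 of the 8 genes, and for 0.0147% of named genes. At an unadjusted p under 0.05 it held for Hsd11b2 alone, where 11.1% of named genes passed. For Hsd11b2 the effect in males minus that in females was -1.08 (SE 0.29, adjusted p = 0.238 from limma), for Scnn1a -0.76 (SE 0.34, adjusted p = 0.526) and for Scnn1b -0.38 (SE 0.23, adjusted p = 0.645). Sgk1 and Tsc22d3 went the other way by sign, with differences of 0.39 and 0.36 in males and -0.41 and -0.20 in females, none of them called. A difference between the sexes is thus not shown for any of the 8 genes.

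Across the 8 arrays the genes fell into pairs whose levels followed each other. These correlations are descriptions over mice of both genotypes and sexes, and share the arrays, their scaling and the slides. Of the 28 pairs, 4 had a Pearson r over 0.9. Among them were all pairs of Scnn1a, Scnn1b and Hsd11b2, with r of 0.938 for Scnn1a with Scnn1b, 0.971 for Scnn1a with Hsd11b2 and 0.973 for Scnn1b with Hsd11b2. Without the 2 NEKO males these became 0.845, 0.956 and 0.929 over 6 arrays. The other pair was Sgk1 with Tsc22d3, the steroid-induced genes, at 0.941 (0.967 without the NEKO males). Between these groups the values were lower, from 0.305 (Scnn1a with Tsc22d3) to 0.458 (Scnn1b with Sgk1). For Hsd11b2 with Sgk1 the r was 0.412, and 0.718 without the NEKO males. Without those males the values between the groups ran from 0.592 (Scnn1b with Sgk1) to 0.796 (Hsd11b2 with Tsc22d3). They were then closer to the 0.845 for Scnn1a with Scnn1b. For Scnn1g the Pearson r was 0.833 with Tsc22d3, 0.819 with Sgk1, 0.782 with Scnn1b, 0.764 with Hsd11b2 and 0.753 with Scnn1a. Without the NEKO males these were 0.961, 0.890, 0.718, 0.883 and 0.876. By Spearman's rho over the 8 arrays the order was different, with 0.952 for Hsd11b2, 0.905 for Scnn1a, 0.881 for Scnn1b, 0.786 for Sgk1 and 0.619 for Tsc22d3, so Scnn1g was not closer to either group on both measures.

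**Figure D3:**
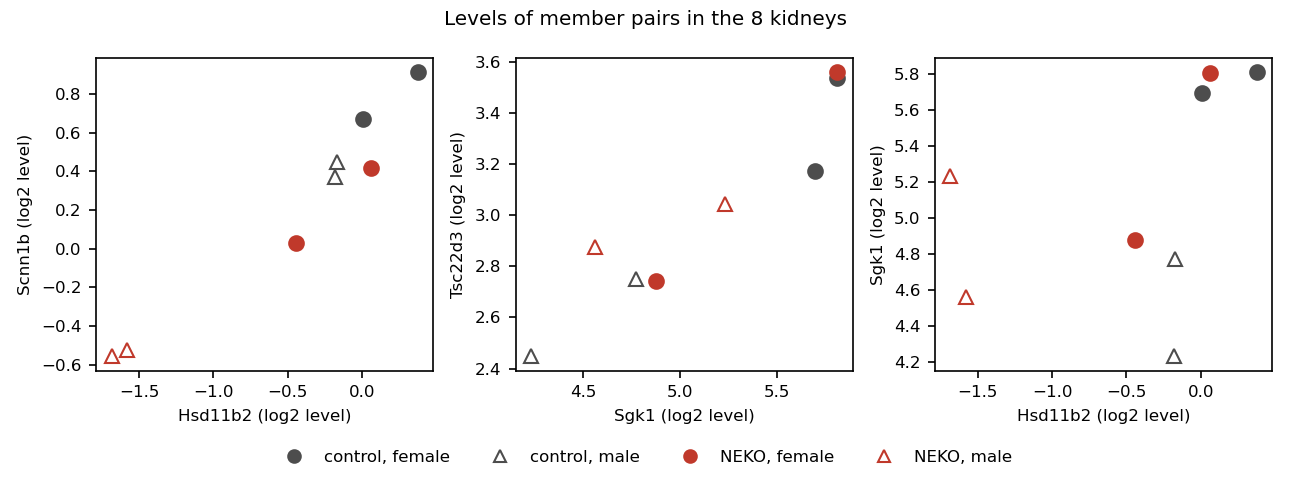
Levels of 3 pairs of genes in the 8 kidneys, each axis in log2 units over the array's 75th percentile, with controls in grey, NEKO mice in red, filled circles for females and open triangles for males. Scnn1b follows Hsd11b2 and Tsc22d3 follows Sgk1 along a line, while Sgk1 against Hsd11b2 shows the NEKO males at the low end of Hsd11b2 with Sgk1 at 4.56 and 5.23.

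The named genes whose levels were most like each ENaC subunit were ranked by Pearson r over the 8 arrays, among 13518 genes. For Scnn1b they were Slc8a1, the sodium-calcium exchanger of the distal nephron (0.987), Arl4d (0.987) and Klk1b27, a tissue kallikrein family member (0.985). For Scnn1a they were Gkn3 (0.988), Rab27a (0.983) and Kcnq1, a potassium channel (0.982). For Scnn1g they were Coq10b (0.974), Slc25a33 (0.971) and Npm2 (0.969). Without the NEKO males, over 6 arrays, the r in the same order were 0.947, 0.961 and 0.959 for Scnn1b. They were 0.920, 0.968 and 0.860 for Scnn1a and 0.979, 0.960 and 0.976 for Scnn1g. An r over 0.9 was common, with 279 genes for Scnn1b, 240 for Scnn1a and 53 for Scnn1g. Slc8a1 lay below all controls in every NEKO mouse, as did 5.07% of all named genes, with a difference of -0.98 (adjusted p = 0.0833 from limma). Klk1b27 has close paralogs among the kallikreins that its probe may not tell apart.

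Other genes of the pathway were read from 5 lists of 57 genes, of which 54 were tested. The genes not tested were Spint2, Zbtb16 and Kcnma1. Of the 54, 0 were called. At an unadjusted p under 0.05 there were 8 lower and 3 higher, or 20.4% of the 54 against 18.3% of all named genes, so the share was close to the background. In males alone 3 were called, all lower: Kcnj1, St14 and Mtor. They were 5.56% of the 54, where 5.04% of all named genes were called in males in either direction and 1.81% called lower.

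The proteases that cut and activate ENaC, with their inhibitors, had a median difference of -0.09 over 9 genes tested. Klk1, tissue kallikrein, made in the connecting tubule, was the lowest, at -1.33 (SE 0.23, adjusted p = 0.0736 from limma), with -1.12 in females and -1.54 in males, and it has close paralogs. St14, which encodes matriptase, was at -0.42 (adjusted p = 0.212 from limma) and at -0.74 in males (adjusted p = 0.0364). Tmprss2 was at 0.26 (adjusted p = 0.214 from limma).

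The 19 genes around SGK1 and NEDD4-2 had a median difference of 0.02, with 1 higher and 2 lower at an unadjusted p under 0.05. Nedd4, the close relative of Nedd4l, was higher in all 4 NEKO mice than in any control, by 0.33 (SE 0.08, adjusted p = 0.120 from limma). Such a separation, with NEKO mice higher, was seen in 4.50% of all named genes. The kinase genes Stk39, which encodes SPAK, and Wnk4, which act on the sodium chloride cotransporter, were at -0.35 (adjusted p = 0.179 from limma) and -0.38 (adjusted p = 0.259). Mtor, a kinase in the complex that activates SGK1, was at -0.42 over all mice (adjusted p = 0.346 from limma) and at -0.92 in males (adjusted p = 0.0307).

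Receptor partners and genes of glucocorticoid handling had a median of -0.02 over 10 genes. The coactivator Ncoa1 was lower in all 4 NEKO mice than in any control, at -0.29 (adjusted p = 0.195 from limma). This separation was seen in 5.07% of all named genes. H6pd, which supplies NADPH to the glucocorticoid-regenerating enzyme HSD11B1, was at 0.23 (adjusted p = 0.209 from limma). Other corticosteroid-responsive genes, such as Per1 and Fkbp5, gave 0 of 9 at an unadjusted p under 0.05. Their differences ran from -0.33 to 0.27 with a median of -0.01, beside -0.01 for Sgk1 and 0.08 for Tsc22d3.

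The sodium and potassium transport partners had a median of -0.35 over 7 genes, with 3 lower and 0 higher at an unadjusted p under 0.05. Kcnj1, which encodes the potassium secretion channel ROMK, was at -0.55 (adjusted p = 0.194 from limma) and fell by 0.94 in males (adjusted p = 0.0221). Slc12a3, the sodium chloride cotransporter, was at -0.57 (adjusted p = 0.203 from limma) and Kcnj10, a basolateral potassium channel, at -0.43 (adjusted p = 0.261).

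**Figure D4:**
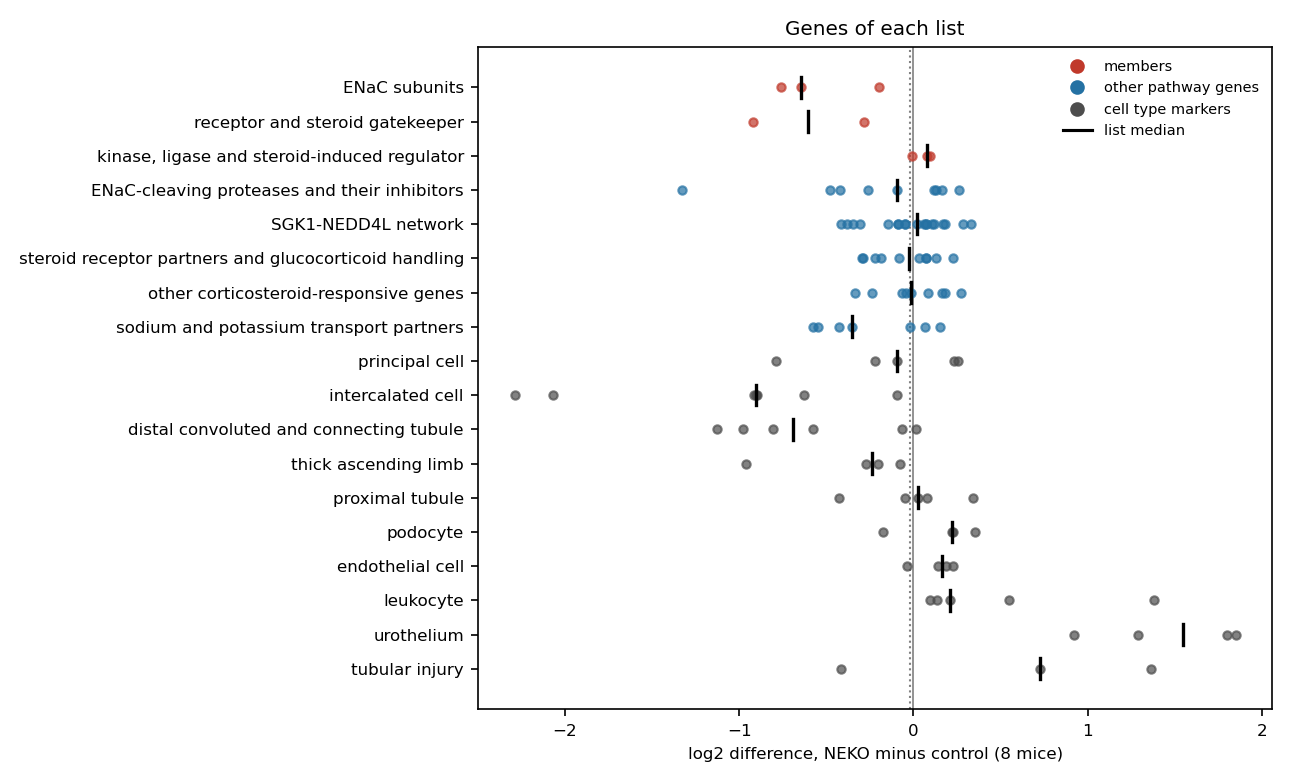
Log2 difference, NEKO minus control over 8 mice, of each gene in the lists, with the 8 genes in red, the other pathway genes in blue, the cell type markers in grey and a bar at the median of each list; the dotted line is the median of all named genes (-0.019). The ENaC subunits lie left of 0, as do the intercalated cell markers (median -0.90), while the urothelial markers lie to the right (median 1.55).

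Marker genes of other cells in whole kidney are set beside these values. Of the principal cell markers, where ENaC and Hsd11b2 are expressed, 0 of 5 passed an unadjusted p under 0.05, with differences of -0.22 for Aqp2, -0.09 for Aqp3, -0.79 for Aqp4, 0.26 for Avpr2 and 0.23 for Gata3. The median was -0.09, and the summed signal of the list, in units of the 75th percentile, was 38.7 to 46.5 in controls and 32.9 to 42.7 in NEKO mice. The groups thus overlapped in the summed principal cell markers, in which Aqp3 and Aqp2 weigh most (mean levels 4.53 and 3.86 in controls). They also overlapped in the summed ENaC subunits, where Scnn1a weighs most, at 14.2 to 21.4 in controls and 7.36 to 17.1 in NEKO mice. In males alone the ENaC sums were 14.2 to 14.8 in controls and 7.36 to 9.24 in NEKO mice. The median difference of the ENaC subunits over all mice was -0.65. Of 6 markers of distal convoluted and connecting tubule, where ENaC is also found, 4 were lower at an unadjusted p under 0.05, with a median of -0.69 and sums of 40.6 to 86.4 in controls and 44.1 to 78.4 in NEKO mice. Calb1, the brightest of the 6 at mean levels of 5.53 in controls and 5.55 in NEKO mice, weighs most in these sums. They therefore say little of the other markers in the list. Of 7 intercalated cell markers, 5 were lower (median -0.90, sums 37.5 to 51.0 in controls and 6.89 to 25.8 in NEKO mice). Slc26a4, at a mean level of 4.69 in controls, weighs most in the control sums. Of 4 urothelial markers, 3 were higher (median 1.55, sums 0.706 to 2.26 and 1.95 to 5.42). Of the 5 proximal tubule markers, 1 was higher and 1 lower (median 0.02). At the same threshold 10.1% of all named genes were lower and 8.16% higher. Within males, where Hsd11b2 and Scnn1b were called, the principal cell sums were 38.7 to 44.6 in controls and 32.9 to 42.7 in NEKO mice. The median difference of these markers was -0.17, and 0 of 5 were called. Aqp4 was at -2.03 in males (adjusted p = 0.138 from limma), with both NEKO males below both control males. Aqp2 was at -0.24 in males and -0.21 in females. Within each sex both NEKO mice lay below both controls for Aqp2, as for Scnn1b and 10.4% of named genes. The margin in males was small, with NEKO male 5 at 3.752 and control male 4 at 3.754. In the same males 5 of 7 intercalated cell markers, 1 of 6 of distal convoluted and connecting tubule and 1 of 4 of thick ascending limb were called lower, with median differences of -1.12, -0.998 and -0.46. Called higher were 3 of 4 urothelial markers (median 2.59) and 1 of 5 leukocyte markers (median 0.71). Within males 1.81% of all named genes were called lower, and 439 of 13570 were called higher. The part of these markers in the values of Scnn1a, Scnn1b and Hsd11b2 was not tested.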

How the data were processed

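The authors deposited the scanner output of each array from Feature Extraction 10.7.3.1, in which the processed signal is a background-subtracted intensity per spot, not normalized between arrays. A matrix of log2 values was deposited too. Of its values, 99.9% lay within 0.01 of the log2 processed signal less the 75th percentile of its array, centred per probe. Control spots and outlier spots (73 to 172 of 43379 per array) were left out here and spots of a probe averaged. Values are the log2 of this signal less the array's 75th percentile over non-control probes. Probes well above background on at least 4 arrays, with a value on at least 6, were kept, and the brightest kept probe stands for its gene. Probes were named by accession through RefSeq (GRCm38.p6), which matched 26690 of 41174.

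Models were run with limma 3.58.1 in R 4.3.3 (lmFit and eBayes, genotype and sex), with adjustment over 19593 genes and unnamed transcripts. The replicates are separate mice, so their number limits the precision. Tested on simulated data of like spread, the procedure found 70.6% of the 2-fold changes and 92.2% of the 4-fold changes, with 5.68% false calls. The simulation drew independent noise for each gene and gave both sexes the same change, so these rates need not hold for the 8 genes. The 8 genes and all lists were chosen with earlier results of these data known. Besides the 8 genes, Keap1 and Nqo1, the text names in each pathway list any called gene or otherwise up to 3 with the smallest unadjusted p under 0.05, the principal cell markers, and the 3 genes most like each ENaC subunit. Mtor, Per1, Fkbp5, Calb1 and Slc26a4 are named outside this rule. The marker lists of podocyte, endothelial cell, thick ascending limb, leukocyte and tubular injury were also read. Of these, 0 of 4, 0 of 4, 1 of 4 (lower), 1 of 5 (higher) and 2 of 3 (higher) genes tested passed an unadjusted p under 0.05. Of all named genes 10.1% were lower and 8.16% higher at that threshold.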

Additional observations from a re-analysis of the deposited data

Results flagged for a closer look

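In 6 of 70 groups of 4 mice, over 35 genes, 1 mouse stood apart, measured as its distance to the closest other mouse over the whole range of the group. About 1 group in 20 would show this by chance. Scnn1a was high in control female 1, the only control without K5-Cre, at 3.91 against 3.38 to 3.43 (0.906). Nr3c2 was low in NEKO male 6, at -5.02 against -4.39 to -4.35 (0.946), and there its probe was not well above background. Without NEKO replicate 6 the difference for Nr3c2 was -0.12, and without control replicate 1 that for Scnn1a was -0.63. Aqp2 was low in the same NEKO male, at 3.37 against 3.69 to 3.75 (0.854). Slc8a1 was high in control female 1, at 1.47 against 0.93 to 0.96 (0.943). Nqo1 was low in control male 4, at 1.24 against 2.35 to 2.46 (0.910). Tmprss2 was high in control male 7, at 2.57 against 2.36 to 2.39 (0.843).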

How the results depend on the processing

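Of the 8 genes, 0 were called with each mouse left out in turn (0 to 0), as with quantile normalization, scaling to the median of detected probes, either other filter, the mean of the probes, no sex term, eBayes with a trend (robust or not), the deposited matrix, the methods' comparison after adjustment, the females alone and the NEKO males left out. The count was 1 (Scnn1b) under normexp background correction, with array weights and under the methods' comparison without adjustment, and 2 (Scnn1b and Hsd11b2) when averaged over the sexes with an interaction and within males. Of the other pathway genes 1 (Klk1) was called under normexp and with array weights, and 0 with each mouse left out (0 to 0). The interaction count stayed at 0 in the settings tried. The difference for Sgk1 (-0.01) was 0.031 under quantile normalization and 0.39 within males, and -0.22 to 0.26 with each mouse left out. That for Nedd4l (0.09) was -0.065 within males, 0.02 without NEKO replicate 3 and 0.18 without NEKO replicate 5. That for Tsc22d3 (0.08) was -0.025 with array weights, -0.20 within females and with the NEKO males left out, and -0.039 to 0.30 with each mouse left out. Scnn1a, Scnn1b, Scnn1g, Nr3c2 and Hsd11b2 were below 0 in all settings in which they were tested. With each mouse left out the adjusted p from limma was 0.0512 to 0.193 for Scnn1b and 0.109 to 0.334 for Hsd11b2. Among all named genes, 15 were called higher and 23 lower. These became 57 and 81 under normexp, 204 and 208 averaged over the sexes, 41 and 78 with array weights, 34 and 41 with trend and robust, 43 and 49 with trend alone, 9 and 14 with no sex term, 10 and 15 with no filter, 6 and 12 with detection on all 8 arrays, 0 and 1 under the methods' comparison adjusted and 743 and 882 unadjusted. The causes were not tested. The within-sex values and leaving out the NEKO males were chosen after seeing the data, and the trend alone with earlier results known. No paired analysis was possible because the replicate numbers run over both groups and none is shared. The mean spot signal was not used here, so normexp ran on the median signal. Nr3c2 lies near background, and its difference went from -0.29 to -0.03 under normexp. It was not tested under the filter that asked for detection on all 8 arrays.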
